A study of Mus musculus with 18 samples.

Results

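Collagens, laminins and the proteins that tie them together were followed in retinal RNA of normoglycemic and diabetic mice, with and without NACET. The genes were taken by symbol: every collagen chain gene, every laminin alpha, beta and gamma chain gene, and Fn1, Nid1, Nid2, Hspg2, Agrn, Sparc and Tnc. This gave 61 of the 35006 gene names in the count files. Of these, 51 had enough reads for a test and 10 did not.

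The mice were males of a C57BL/6 background. WT was C57BL/6J without treatment (3 libraries). WT + NACET was C57BL/6J given N-acetylcysteine ethyl ester, a cell-permeable cysteine donor, in the drinking water (6 libraries). Akita was C57BL/6-Ins2Akita/J without treatment (4 libraries), and Akita + NACET was the same strain given NACET (5 libraries). The Akita allele is a spontaneous mutation of the insulin gene Ins2, so that these mice become diabetic from loss of insulin secretion without an inducing drug. The Akita mice were heterozygous for it. NACET was given from 4 to 24 weeks of age at 0.33 mg/mL of water, which was meant to supply 50 mg/kg each day. The labels do not say whether the libraries of a group came from separate animals, so p-values measure the spread between libraries, which may be technical in part.

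Basement membranes are thin sheets of matrix in which a network of collagen IV and a network of laminin are joined by nidogens and by heparan sulfate proteoglycans such as perlecan and agrin. In the eye they form the inner limiting membrane between retina and vitreous, Bruch's membrane under the pigment epithelium, the lens capsule and the sleeve around each capillary, and thickening of the capillary basement membrane is a classic feature of diabetic retinopathy. Fibrillar and fibril-associated collagens (FACITs) build the vitreous, sclera and choroid, which lie against the retina.

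Between 11590384 and 18073791 reads were counted in genes per library, and the 61 genes held between 0.0451% and 0.0914% of them. The lowest share was in Akita replicate 4 and the highest in WT replicate 2. Off-exon reads, those that fell outside annotated exons, made up 16.5% ± 1.26 (SD, n = 3) of the reads considered in WT, 12.9% ± 2.77 (n = 6) in WT + NACET, 11.6% ± 1.85 (n = 4) in Akita and 16.6% ± 2.13 (n = 5) in Akita + NACET. This measure therefore moved with the groups. The rod transducin gene Gnat1, which marks the labelled tissue, lay between 8426 and 24550 CPM, the usual unit of counts scaled to library size, here with library sizes adjusted by the TMM method, in the 18 libraries.

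Sequences before the start of some of these genes are shown first. The collagen IV genes were taken because they lie in head-to-head pairs. Col6a1, Lamb1 and Tnc are 3 of the genes called in the same pair of comparisons below. Agrn and Lama1 were called in that pair too but are not printed. In the mm9 annotation Col4a4 (chromosome 1, minus strand) ends at 82583424 and Col4a3 (plus strand) begins 71 bp further on, at 82583496. Col4a1 (chromosome 8, minus strand) and Col4a2 (plus strand) overlap by 22 bp at their starts. Promoter windows of 250 bases before to 50 bases after the start came from RefSeq on GRCm38.p6, which held 51 windows for 45 of the 61 genes. Col4a3 had no entry. A further, overlapping window of Tnc, chr4:64046966-64047265, is not printed. Capitals mark the GC box GGGCGG, the CCAAT box CCAAT, the TATA box TATAAA and the core of the antioxidant response element TGACNNNGC, on either strand. Each window is written 5′ to 3′ on the strand of its gene.
Col4a4, chr1:82586800-82587099, minus strand: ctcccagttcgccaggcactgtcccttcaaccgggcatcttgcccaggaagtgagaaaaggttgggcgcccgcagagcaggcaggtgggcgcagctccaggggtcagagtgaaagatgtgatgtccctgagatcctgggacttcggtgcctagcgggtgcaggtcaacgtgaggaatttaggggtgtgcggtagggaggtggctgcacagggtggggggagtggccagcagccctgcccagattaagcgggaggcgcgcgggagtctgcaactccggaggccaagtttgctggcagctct
Col4a1, chr8:11312777-11313076, minus strand: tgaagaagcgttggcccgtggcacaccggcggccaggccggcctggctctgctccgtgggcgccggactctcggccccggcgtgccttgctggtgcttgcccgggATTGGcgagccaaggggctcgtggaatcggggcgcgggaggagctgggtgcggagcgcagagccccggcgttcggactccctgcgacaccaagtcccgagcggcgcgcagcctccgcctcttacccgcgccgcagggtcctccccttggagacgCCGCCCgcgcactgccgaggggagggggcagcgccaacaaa
Col4a2, chr8:11312555-11312854, plus strand: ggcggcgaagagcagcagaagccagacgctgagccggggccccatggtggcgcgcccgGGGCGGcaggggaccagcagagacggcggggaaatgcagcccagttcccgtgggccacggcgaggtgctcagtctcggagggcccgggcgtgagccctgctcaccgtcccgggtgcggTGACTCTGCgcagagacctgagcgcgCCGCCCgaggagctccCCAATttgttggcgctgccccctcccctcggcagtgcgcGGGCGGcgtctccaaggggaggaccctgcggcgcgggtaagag
Col6a1, chr10:76725995-76726294, minus strand: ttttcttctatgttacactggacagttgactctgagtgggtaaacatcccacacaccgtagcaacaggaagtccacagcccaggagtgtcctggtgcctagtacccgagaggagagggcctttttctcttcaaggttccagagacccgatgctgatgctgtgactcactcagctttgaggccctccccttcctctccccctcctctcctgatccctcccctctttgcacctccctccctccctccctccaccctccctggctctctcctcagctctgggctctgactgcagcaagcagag
Lamb1, chr12:31265043-31265342, plus strand: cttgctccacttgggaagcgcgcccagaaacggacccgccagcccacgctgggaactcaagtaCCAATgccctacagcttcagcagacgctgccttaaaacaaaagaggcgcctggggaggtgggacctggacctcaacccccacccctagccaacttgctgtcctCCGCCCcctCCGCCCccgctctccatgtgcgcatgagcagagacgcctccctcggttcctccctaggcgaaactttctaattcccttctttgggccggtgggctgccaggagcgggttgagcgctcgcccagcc
Tnc, chr4:64046887-64047186, minus strand: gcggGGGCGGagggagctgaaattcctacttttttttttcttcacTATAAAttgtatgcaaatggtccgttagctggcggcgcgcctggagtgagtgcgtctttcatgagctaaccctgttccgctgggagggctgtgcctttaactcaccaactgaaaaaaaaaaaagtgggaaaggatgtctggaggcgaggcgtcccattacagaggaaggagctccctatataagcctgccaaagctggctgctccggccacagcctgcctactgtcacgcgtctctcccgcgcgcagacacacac

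The windows of Col4a1 and Col4a2 share 78 bases. Of the windows printed, those of Col4a4 and Col6a1 held none of the 4 motifs, and the TGACNNNGC core was found only before Col4a2. Among all 51 windows of the 61 genes, the GC box was found in 62.7%, against 35.7% of the 32851 RefSeq windows searched. The CCAAT box was in 29.4% against 37.4%, the TATA box in 13.7% against 13.6%, and the antioxidant response element core in 13.7% against 12.4%. These are matches of letters only.

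Which of the matrix genes the retina expressed most was asked per kb of exon, since CPM grows with gene length. Sparc, a collagen-binding glycoprotein of the cell surface and matrix, stood first with 44.7 CPM per kb over the 18 libraries. The collagen IV chain Col4a3 followed with 21.4 CPM per kb, and the vitreous collagen Col9a1 came next with 7.52 CPM per kb. Together Sparc and Col4a3 took between 33.7% and 69.3% of the counts of the 61 genes in a library. Gene counts do not show where along the exons the reads lay. The plot of levels per kb shows how far the other genes lay below these.

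**Figure D1:**
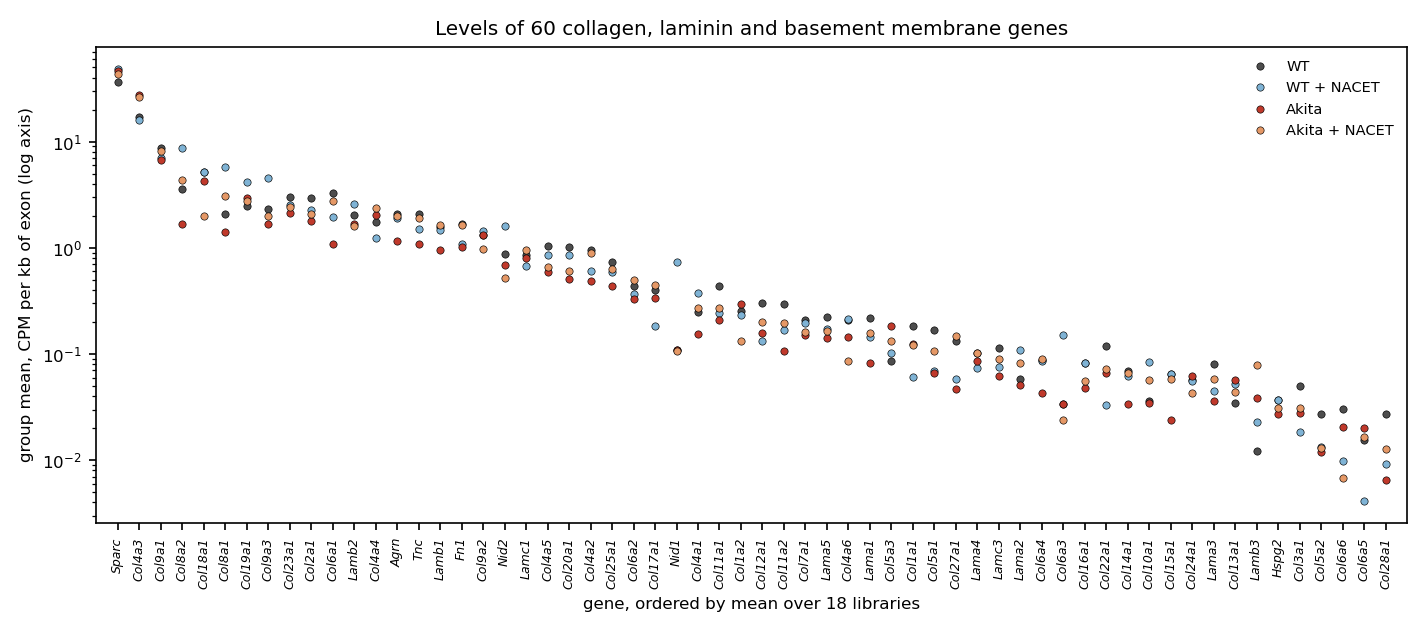
Group means in CPM per kb of exon (log axis) for 60 of the 61 genes, ordered by the mean over 18 libraries. Sparc and Col4a3 stand above the rest, and most genes lie below 1 CPM per kb.

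Several textbook basement membrane genes were near the limit of detection in these libraries. Hspg2, which encodes perlecan, had between 1 and 24 counts per library. The nidogen gene Nid1 had 0 counts in Akita replicate 4, where 0 counts allow up to 0.249 CPM. The 10 genes without a test were Col3a1, Col5a2 and Col24a1 (fibrillar), Col6a5 and Col6a6 (collagen VI), Col10a1 (network), Col13a1 (transmembrane), Col15a1 (basement membrane zone), Col28a1 and the laminin gene Lamb3. Their highest count in any library was 5 to 14. A further 13 of the tested genes averaged below 1 CPM, and small changes of these were not detectable at this depth.

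Akita against WT asks what the diabetic genotype does to the genes without treatment. The genes that passed the test were lower in Akita except for Col4a3, which was higher, and most of the others had lower values too. Of the 51 tested genes, 6 were called by edgeR at an adjusted p of at most 0.05, 1 higher and 5 lower. Over all 16183 genes tested 7.64% were called, 3.96% as higher and 3.68% as lower, beside 11.8%, 1.96% and 9.8% of the 51. The median log2 fold change of the 51 was -0.54, beside -0.01 over all genes, and -0.19 without WT replicate 2. A negative sign was found for 41 of the 51, beside 51.6% of all genes. Akita had the lowest of the 4 group means for 31 of the 51 genes and WT the highest for 26. These ranks of the group means were not counted over all genes, so they do not set the matrix genes apart.

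Akita + NACET against Akita asks what treatment does in the diabetic retina. Here 6 of the 51 genes were called, all 6 as higher, where 9.65% of all genes were called, 4.51% as higher and 5.14% as lower, beside 11.8% of the 51. Of the 5 genes called lower in Akita against WT, all 5 were called higher here, and Col27a1 was the sixth. How many of all genes were called in both ways was not counted, so this overlap does not set the matrix genes apart. Both comparisons use the same 4 Akita libraries, so their values are set side by side and are not independent of each other. The median log2 fold change of the 51 genes was 0.25, beside -0.003 over all genes, 0.48 without Akita replicate 3 and -0.05 with off-exon reads as a covariate. In bulk RNA, fewer cells of a type and less RNA per cell cannot be told apart.

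**Figure D2:**
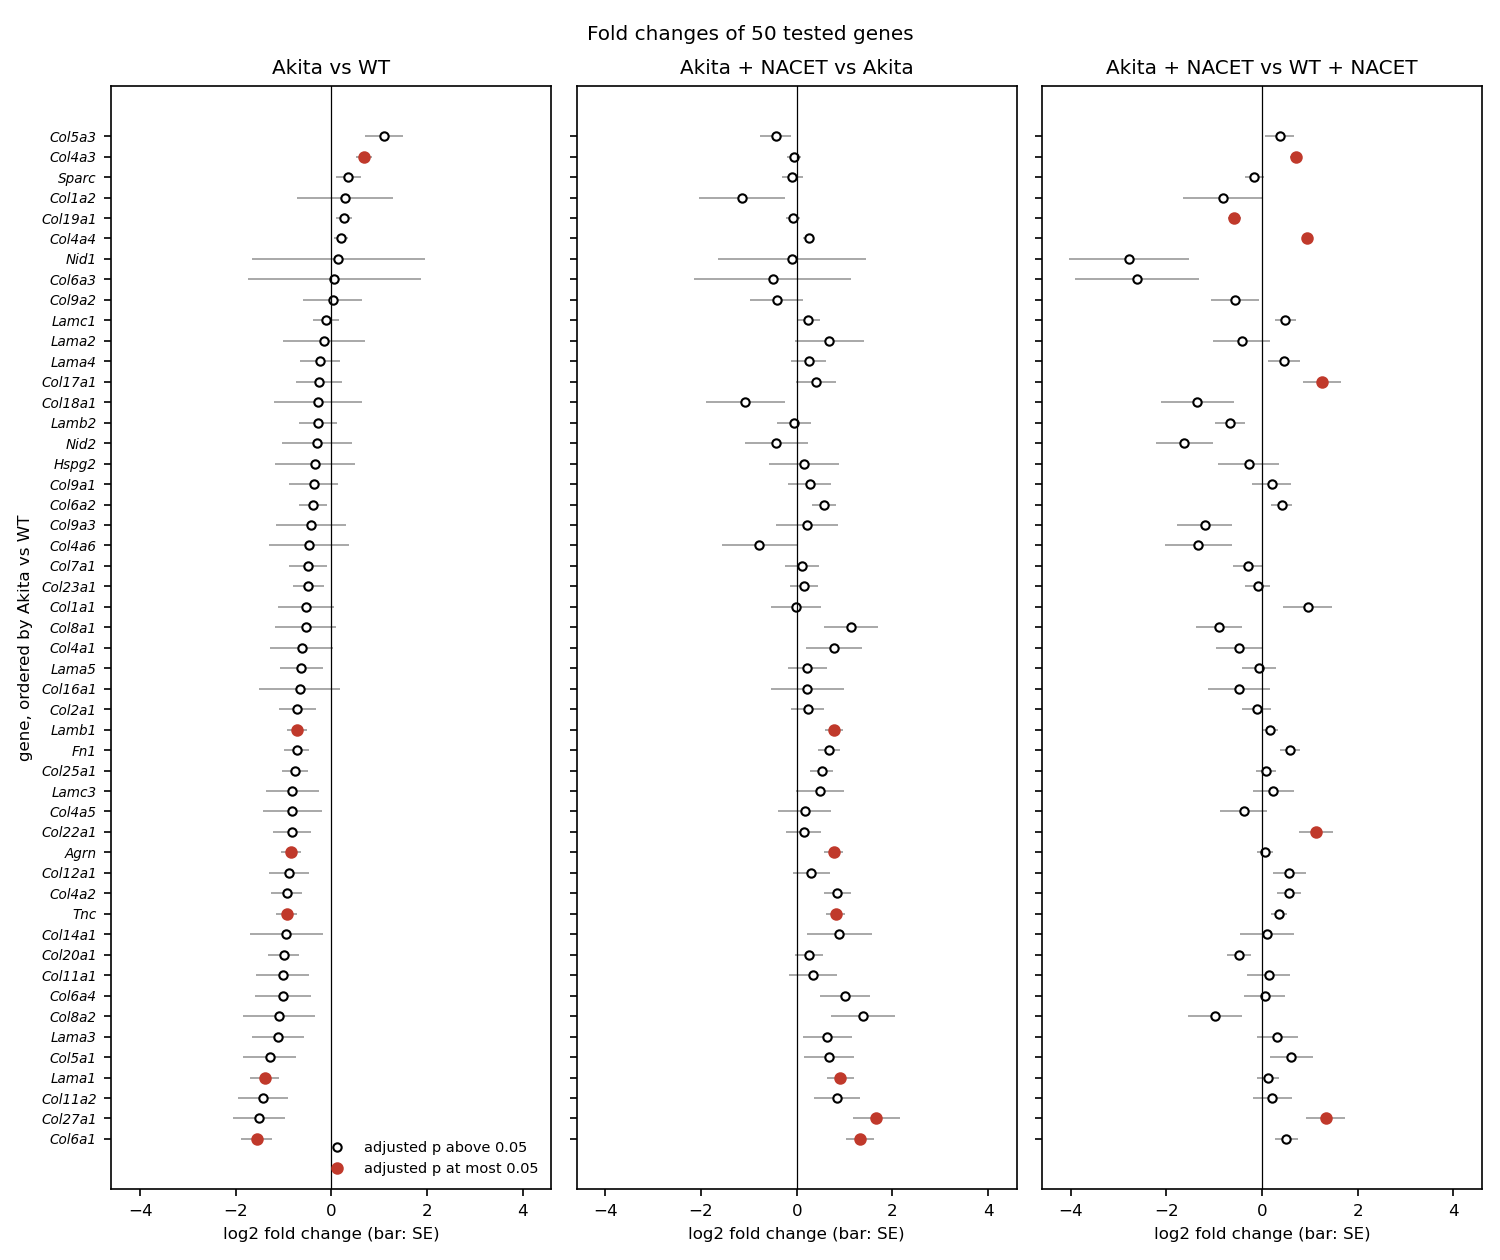
Log2 fold changes (x axis, bars are SE) of 50 of the 51 tested genes in 3 comparisons (Akita vs WT on the left, Akita + NACET vs Akita in the middle, Akita + NACET vs WT + NACET on the right), with filled points for adjusted p at most 0.05. Of the 6 filled points in Akita vs WT, 5 lie left of 0, and all 6 in Akita + NACET vs Akita lie right of 0.

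Collagen IV is the sheet-forming collagen of basement membranes, with Col4a1 and Col4a2 in nearly all of them and Col4a3, Col4a4 and Col4a5 in another network that is lost in Alport syndrome. Col4a3 had 181, 152 and 175 CPM in WT replicates 1 to 3. In Akita replicates 1 to 4 it had 320, 262, 190 and 312 CPM, all above WT. Akita + NACET libraries had 314, 247, 238.5, 243 and 259 CPM. In WT + NACET Col4a3 ranged from 129 to 194 CPM with a median of 153. The lowest Akita library thus fell within the range of WT + NACET, and no Akita + NACET library did.

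The log2 fold change of Col4a3 was 0.68 (SE 0.162, adjusted p = 0.0233, edgeR) in Akita vs WT and 0.71 (SE 0.127, adjusted p = 0.00202) in Akita + NACET vs WT + NACET. The latter call was kept in all 19 alternatives tried, with log2 fold changes from 0.64 to 0.78. The former was kept in 9 of 15 and lost, among others, without WT replicate 1, WT replicate 2 or Akita replicate 4. Within a genotype, NACET changed Col4a3 by -0.06 (SE 0.14, adjusted p = 0.817) in Akita and by -0.09 (SE 0.148, adjusted p = 0.768) in WT, and neither passed the test.

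Col4a4, the partner of Col4a3 across the shared start region shown above, was less abundant at 1.82 CPM per kb over all libraries. It had 13.4, 16.4 and 14.2 CPM in WT. WT + NACET libraries ranged from 8.04 to 12.1 with a median of 10.6, below every WT library. In Akita it had 17.5, 15.4, 15.3 and 18.98 CPM. The Akita + NACET libraries had 22.6, 21.2, 19.1, 17.3 and 19.3 CPM, above every library of WT and of WT + NACET.

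Col4a4 was called higher in Akita + NACET than in WT + NACET (log2 fold change 0.94, SE 0.112, adjusted p = 3.77e-05, edgeR), in all 19 alternatives as well, from 0.86 to 1.02. In Akita vs WT the change was 0.20 (SE 0.142, adjusted p = 0.393), and in WT + NACET vs WT it was -0.50 (SE 0.131, adjusted p = 0.0557). In Akita + NACET vs Akita it was 0.25 (SE 0.124, adjusted p = 0.189). The effect of NACET on Col4a4 differed between the genotypes, with an interaction of 0.75 (SE 0.18, adjusted p = 0.00965), which was lost with off-exon reads as a covariate and without the 5 libraries with high Optc described below.

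Per kb of exon, Col4a3 exceeded Col4a4 by a factor of 7.72 to 11.3 in WT, 10.4 to 19 in WT + NACET, 10.3 to 15.3 in Akita and 9.71 to 11.7 in Akita + NACET. The groups overlapped in this ratio.

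Col4a1 and Col4a2, which form the collagen IV of most basement membranes, were lower in level than Col4a3. Col4a2 had 5.89, 8.79 and 4.10 CPM in WT and 3.86, 3.13, 3.89 and 2.07 CPM in Akita, so that every Akita library lay below every WT library. It had 3.51, 7.19, 5.62, 5.34 and 7.64 CPM in Akita + NACET. In WT + NACET it ranged from 2.11 to 5.70 CPM with a median of 4.001. No pairwise comparison of Col4a2 passed the test (adjusted p = 0.0731 in Akita vs WT and 0.0621 in Akita + NACET vs Akita, edgeR). The interaction was called at a log2 value of 1.49 (SE 0.407, adjusted p = 0.0171), and it was lost without WT replicate 2.

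Col4a1 had 1.65, 2.56 and 0.843 CPM in WT and 1.05, 1.56, 1.26 and 0.332 CPM in Akita. In Akita + NACET it had 0.689, 2.30, 1.53, 2.24 and 2.48 CPM. In WT + NACET the median was 1.77 and the range 0.835 to 7.01 CPM, where the highest value came from replicate 5, the library with the most lens RNA. The groups overlapped and no comparison was called. Col4a5 and Col4a6 ranged from 1.64 to 12.95 CPM and from 0.379 to 4.93 CPM across all libraries and passed no test.

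**Figure D3:**
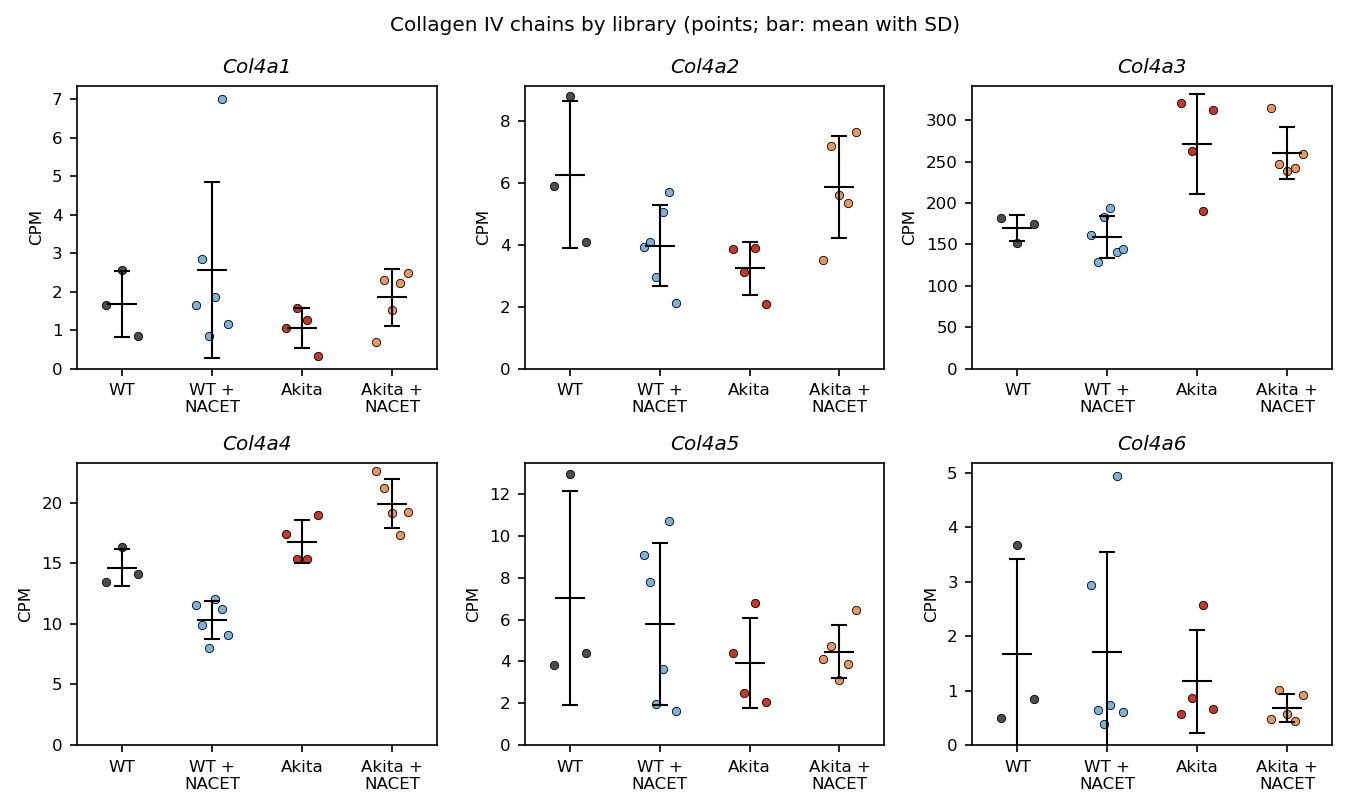
CPM (y axis) of the 6 collagen IV chains in each library of the 4 groups, with the mean and SD as bars. Col4a3 and Col4a4 are higher in every Akita + NACET library than in any WT + NACET library, while Col4a1, Col4a5 and Col4a6 overlap between all groups.

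Laminins are trimers of an alpha, a beta and a gamma chain that seed the basement membrane at the cell surface. Lama1, the alpha chain best known from embryonic basement membranes and the inner limiting membrane, had 1.44, 3.04 and 1.81 CPM in WT. In Akita it had 0.842, 0.869, 0.754 and 0.663 CPM, below every library of the other groups. The Akita + NACET libraries had 1.17, 1.53, 1.21, 1.43 and 2.09 CPM, and the WT + NACET libraries 0.986 to 1.79 CPM with a median of 1.42. On the log2 scale Lama1 differed by -1.40 (SE 0.307, adjusted p = 0.0166, edgeR) in Akita vs WT and 0.91 (SE 0.281, adjusted p = 0.0453) in Akita + NACET vs Akita. The call in Akita + NACET vs Akita held in 4 of 17 alternatives, with log2 fold changes of 0.33 to 0.99, and that in Akita vs WT in 10 of 15. The counts behind Lama1 were 8 to 38 per library.

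Lamb1, the beta chain of the classic laminin trimer, was likewise lower in Akita. It had 15.5, 19.98 and 11.6 CPM in WT and 8.56, 10.5, 10.8 and 7.87 CPM in Akita. In Akita + NACET it had 21.8, 17.5, 14.5, 13.1 and 14.8 CPM. All Akita libraries were below all WT and all Akita + NACET libraries, while WT + NACET, at 9.57 to 19.4 CPM with a median of 14.7, overlapped Akita. Lamb1 fell by 0.72 on the log2 scale (SE 0.214, adjusted p = 0.0439, edgeR) in Akita vs WT and rose by 0.78 (SE 0.191, adjusted p = 0.0217) in Akita + NACET vs Akita. The former call was kept in 6 of 15 alternatives and the latter in 9 of 17.

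Lamb2, Lamc1 and Lama5 did not pass any test. Lamb2, the beta chain of synaptic and vascular laminins, had 8.33, 20.5 and 5.90 CPM in WT, 9.40, 8.69, 14.6 and 4.81 in Akita, and 8.54, 10.4, 9.32, 8.33 and 8.69 in Akita + NACET. WT + NACET libraries ranged from 8.95 to 21.9 CPM with a median of 12.3. The groups overlapped, and WT replicate 2 held more than the other WT libraries together.
Lamc1, the gamma chain shared by most laminins, had 5.96, 9.51 and 5.90 CPM in WT and 4.84, 5.79, 6.22 and 9.70 in Akita. It had 9.37, 5.78, 7.08, 7.02 and 9.93 CPM in Akita + NACET and 4.25 to 8.29 with a median of 4.73 in WT + NACET. All groups overlapped. Lama5, the alpha chain of mature vascular and epithelial basement membranes, had 1.94, 3.84 and 1.81 CPM in WT, 1.40, 1.68, 2.07 and 1.24 in Akita, and 1.24, 2.004, 1.15, 1.37 and 3.66 in Akita + NACET. In WT + NACET it lay between 0.955 and 3.01 CPM with a median of 1.98, so that its groups overlapped too. Lama2, Lama3, Lama4 and Lamc3 were not called in any comparison, with group means under 2 CPM.

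Agrin, a heparan sulfate proteoglycan that binds laminin and organises synapses, was called in Akita vs WT and in Akita + NACET vs Akita. Agrn had 17.5, 20.7 and 11.9 CPM in WT and 9.19, 10.9, 8.23 and 8.70 CPM in Akita. The Akita + NACET libraries had 13.6, 16.4, 13.3, 16.3 and 19.5 CPM. In WT + NACET it ranged from 11.5 to 23.6 CPM with a median of 14.2. Every Akita library lay below every library of the other 3 groups. Agrn differed by -0.85 on the log2 scale (SE 0.217, adjusted p = 0.0272, edgeR) in Akita vs WT and 0.77 (SE 0.195, adjusted p = 0.0239) in Akita + NACET vs Akita. With off-exon reads as a covariate these values were -0.27 (adjusted p = 0.527) and 0.20 (adjusted p = 0.752), and neither was called.

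Tenascin C, a glycoprotein that modulates cell adhesion during development and repair, followed the same order. Tnc had 18.4, 14.7 and 13.9 CPM in WT, 7.79, 8.22, 9.61 and 6.96 CPM in Akita, and 14.8, 15.4, 10.1, 12.6 and 18.9 CPM in Akita + NACET. WT + NACET ranged from 7.31 to 14.5 CPM with a median of 11.01, which overlapped Akita. The log2 fold change of Tnc was -0.94 (SE 0.214, adjusted p = 0.0187, edgeR) in Akita vs WT and 0.81 (SE 0.192, adjusted p = 0.021) in Akita + NACET vs Akita. Of the exon length of Tnc, 2.34% is shared with another gene, and reads that lay wholly there would have been left out as ambiguous.

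Fibronectin, an adhesion protein that binds integrins and collagens, showed values in the same order that missed the threshold. Fn1 had 17.95, 13.1 and 11.02 CPM in WT and 9.19, 9.38, 8.48 and 6.80 CPM in Akita. In Akita + NACET it had 12.3, 15.5, 11.2, 13.7 and 15.3 CPM, and in WT + NACET 5.31 to 14.5 CPM with a median of 8.12. Akita did not overlap WT or Akita + NACET. The adjusted p was 0.0829 in Akita vs WT (log2 fold change -0.72, SE 0.259) and 0.0633 in Akita + NACET vs Akita (0.68, SE 0.231, edgeR). The interaction was called at 1.31 (SE 0.33, adjusted p = 0.0119).

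Sparc had 125, 134 and 107 CPM in WT, 188, 154, 202 and 80.2 CPM in Akita, and 169, 149, 185, 129 and 104 CPM in Akita + NACET. WT + NACET libraries ranged from 131 to 229 CPM with a median of 155. The most abundant gene of the 61 per kb thus overlapped between groups and passed no test. Nid1, the laminin-to-collagen IV linker, had 0.359, 1.36 and 0.241 CPM in WT, 0.491, 1.68, 0.439 and 0 CPM in Akita, and 0.482, 1.12, 0.893, 0.373 and 0.327 CPM in Akita + NACET. In WT + NACET the median was 0.545 CPM, and replicate 5 had 24.3 CPM. No comparison of Nid1 was called.
Hspg2 had 0.0718, 1.28 and 0.241 CPM in WT, 0.421, 0.521, 0.377 and 0.249 in Akita, 0.482, 0.825, 0.128, 0.311 and 0.457 in Akita + NACET, and 0.0682 to 1.43 with a median of 0.477 in WT + NACET. The counts behind Hspg2 were 1 to 24 per library, and its log2 fold changes, none of which passed the test, had SEs of 0.634 to 0.837 in the 5 pairwise comparisons.

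Collagen VI forms beaded microfibrils next to basement membranes and around vessels. Col6a1 showed the largest decrease among the genes called in Akita vs WT. It had 17.4, 14.1 and 11.3 CPM in WT and 4.14, 5.73, 5.34 and 3.98 CPM in Akita. The Akita + NACET libraries had 11.9, 14.4, 7.66, 9.76 and 16.9 CPM, and the WT + NACET libraries 4.16 to 14.1 CPM with a median of 8.27. Akita lay below all libraries of WT and Akita + NACET and overlapped WT + NACET. The log2 fold change of Col6a1 was -1.56 (SE 0.319, adjusted p = 0.0162, edgeR) in Akita vs WT and 1.33 (SE 0.29, adjusted p = 0.0203) in Akita + NACET vs Akita. Its partner chain Col6a2, named after its values were seen, changed by -0.39 (SE 0.288, adjusted p = 0.406) and 0.58 (SE 0.253, adjusted p = 0.136) in these comparisons and passed neither.

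Col27a1, a fibrillar collagen first known from cartilage, was called in Akita + NACET vs Akita alone of the first pair of comparisons. It had 1.51, 2.48 and 1.204 CPM in WT, 0.912, 0.232, 0.628 and 0.663 in Akita, and 0.896, 2.42, 1.02, 1.31 and 3.92 in Akita + NACET. In WT + NACET it lay between 0.273 and 1.43 CPM with a median of 0.634. Akita + NACET overlapped Akita, and the values of its replicates 2 and 5 stood above the rest. Its change was 1.66 on the log2 scale (SE 0.487, adjusted p = 0.039, edgeR) in Akita + NACET vs Akita and -1.51 (SE 0.542, adjusted p = 0.0842) in Akita vs WT.

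**Figure D4:**
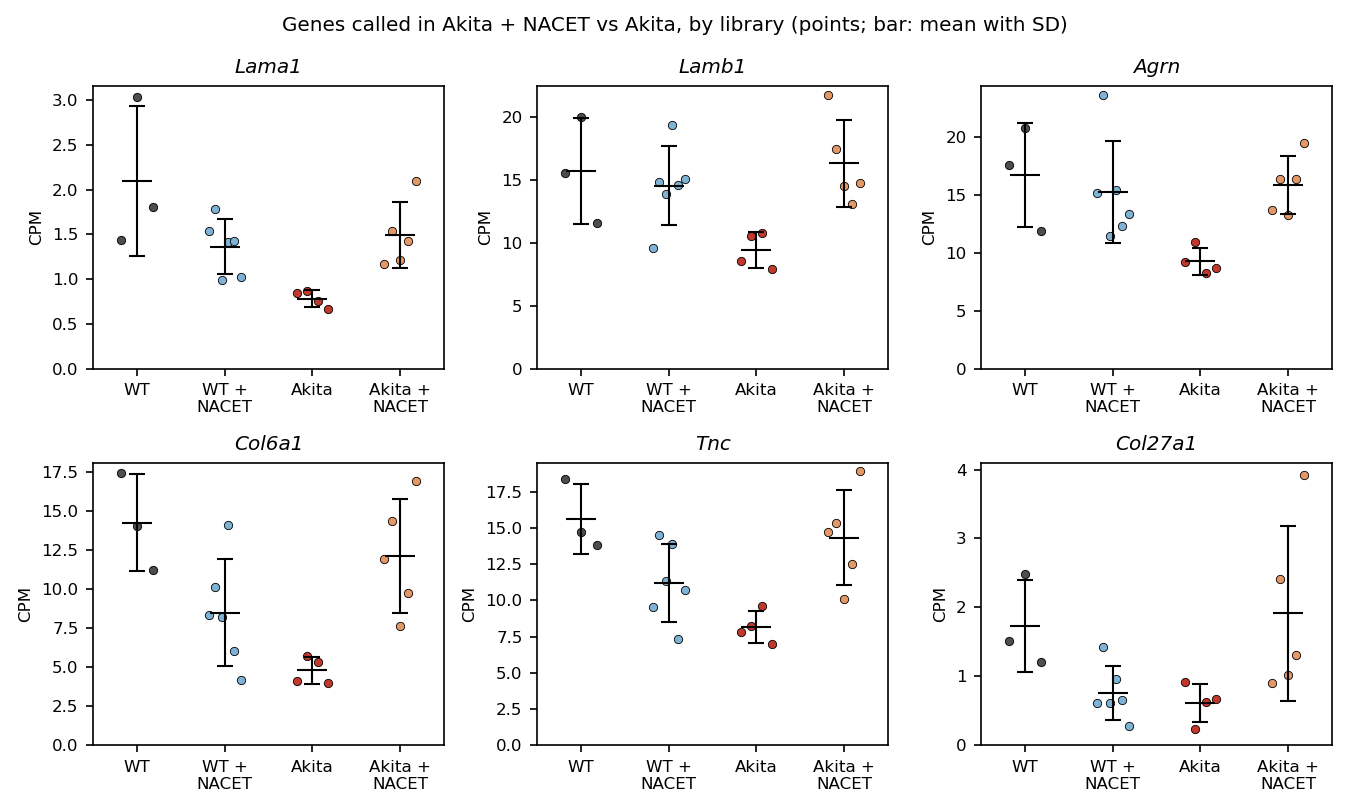
CPM (y axis) of Lama1, Lamb1, Agrn, Col6a1, Tnc and Col27a1 in each library of the 4 groups, with the mean and SD as bars. For the first 5 genes every Akita library lies below every WT and every Akita + NACET library, and for Col27a1 the Akita and Akita + NACET libraries overlap. The genes are shown because they were called in Akita + NACET vs Akita. How many of all genes separate in this way was not counted.

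The number of calls changed when single libraries were left out and with off-exon reads as a covariate. In Akita vs WT, 0 of the 51 genes were called without WT replicate 1, 0 without WT replicate 2 and 2 (Col6a1 and Lama1) without Akita replicate 4. In Akita + NACET vs Akita, 0 were called without Akita replicate 4, 0 without Akita + NACET replicate 5, 2 without Akita + NACET replicate 2 and 3 without Akita replicate 3. With the covariate 0 were called in either comparison. The share of all genes called was not counted for these alternative fits, here or below. Their counts therefore do not set the matrix genes apart from other genes. The called genes kept their direction in the alternatives run for each of these comparisons (15 for Akita vs WT and 17 for Akita + NACET vs Akita), while the size of the change differed by gene. Col4a3 in Akita vs WT stayed between 0.59 and 0.82 on the log2 scale and Lamb1 in Akita + NACET vs Akita between 0.66 and 0.94, the covariate included. Akita replicate 4 had the lowest CPM of all 18 libraries for 20 of the 51 genes and the highest Gnat1, at 24550 CPM. How many of all genes were lowest in that library was not counted.

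Markers of other cells moved in the same comparisons, and their part in these results was not tested. Among the rod photoreceptor markers, Nrl was called higher in Akita vs WT, by 0.55 on the log2 scale, and Gnat1, Prph2 and Nrl were called lower in Akita + NACET vs Akita, while Pde6b, Sag and Rp1 were called in neither. Nrl lay between 1813 and 2348 CPM in WT, 2381 and 3136 in WT + NACET, 2448 and 3578 in Akita and 1565 and 2358 in Akita + NACET. Of 12 endothelial markers, 1 was called lower in Akita vs WT and 2 higher in Akita + NACET vs Akita, with summed levels of 140 to 181 CPM in WT, 141 to 198 in WT + NACET, 104 to 157 in Akita and 156 to 182 in Akita + NACET. Most of these sums came from Kdr and Flt1. The median log2 fold change of the 12 markers was -1.04 and 1.31. The tight junction gene Cldn5, with group means of 0.444 to 1.96 CPM, changed by -2.11 (SE 0.588, adjusted p = 0.0365, edgeR) and by 2.14 (SE 0.536, adjusted p = 0.0239). Pecam1 moved the other way, with means of 1.92 CPM in WT, 2.43 in Akita and 2.02 in Akita + NACET. Flt1 had means of 54.5, 55.4 and 66.8 CPM in these groups. Of 9 markers of pericytes and smooth muscle, 1 was called lower and 2 higher in these comparisons, with Pdgfrb at -1.08 (SE 0.32, adjusted p = 0.0437) and 1.01 (SE 0.287, adjusted p = 0.0354). The median log2 fold change of the 9 was -0.402 and 0.346. Mean CPM was higher in Akita than in WT for Kcnj8 (0.656 and 0.333), Tagln (0.879 and 0.737) and Cspg4 (0.267 and 0.249). The summed level of the 9, mostly from Rgs5, was 40.1 to 62.5 CPM in WT, 57.9 to 129 in WT + NACET, 25.8 to 51 in Akita and 44.6 to 65.7 in Akita + NACET. Of 7 Müller glia markers, the cells that abut the inner limiting membrane, 1 (Aqp4, the glial water channel, at -0.54, SE 0.13, adjusted p = 0.0235) was called lower in Akita vs WT and 0 in Akita + NACET vs Akita. Their summed level was 2240 to 3000 CPM in WT, 2380 to 3030 in WT + NACET, 1300 to 2450 in Akita and 2010 to 2360 in Akita + NACET. Of 5 red blood cell markers 0 were called in Akita vs WT and 2 higher in Akita + NACET vs Akita, with summed levels of 12.8 to 28.5 CPM in WT, 20 to 56.4 in WT + NACET, 11.9 to 33.9 in Akita and 35.7 to 97.2 in Akita + NACET. Of the tested markers of scleral and choroidal fibroblasts (6 of 9 tested), astrocytes (5 of 5) and optic nerve myelin (2 of 5), 0 were called by edgeR in these comparisons, and 0 had an unadjusted p under 0.05. The endothelial list had 5 genes at 0 in at least 1 library, and no marker list had a gene at 0 in every library.

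WT + NACET against WT asks what treatment does in the normoglycemic retina. Of the 51 genes 2 were called, 1 in each direction, where 1.48% of all genes were called. Both are FACIT collagens. Col19a1, a FACIT collagen that neurons also express, had 18.5, 16.2 and 16.1 CPM in WT and 25.1 to 34.0 CPM with a median of 27.7 in WT + NACET, without overlap. It rose by 0.75 on the log2 scale (SE 0.155, adjusted p = 0.0178, edgeR). In Akita it had 21.7, 24.8, 14.4 and 19.7 CPM and in Akita + NACET 24.7, 18.2, 18.8, 18.1 and 15.7 CPM. The change with NACET in Akita was -0.08 (SE 0.143, adjusted p = 0.739), and the interaction was called at -0.83 (SE 0.21, adjusted p = 0.0115).

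Col22a1, a FACIT collagen of tissue junctions, had 1.15, 1.28 and 0.843 CPM in WT and 0.0682 to 0.572 CPM with a median of 0.298 in WT + NACET, again without overlap. It fell by 1.81 on the log2 scale (SE 0.392, adjusted p = 0.0232, edgeR), from 1 to 16 counts per library. In Akita it had 0.491, 0.521, 0.691 and 0.746 CPM, and in Akita + NACET 0.413, 0.766, 0.638, 0.684 and 0.849 CPM. With WT replicate 1 or WT replicate 2 left out, neither Col19a1 nor Col22a1 was called, and 1 of the pair was called without WT replicate 3 and without WT + NACET replicate 3. The median of the 51 genes was -0.22, beside -0.01 over all genes.

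Akita + NACET against WT + NACET asks for the genotype difference under treatment. Of the 51 genes 6 were called, 5 higher and 1 lower, where 13.3% of all genes were called. Beside Col4a3 and Col4a4 the higher genes were Col27a1 (log2 fold change 1.33, SE 0.412, adjusted p = 0.0386), Col22a1 (1.13, SE 0.363, adjusted p = 0.0442) and Col17a1 (1.26, SE 0.392, adjusted p = 0.0397, edgeR). The lower gene was Col19a1 (-0.58, SE 0.129, adjusted p = 0.00781). The median of the 51 genes was 0.07, beside 0.00 over all genes.
Without any 1 of Akita + NACET replicates 2 and 5 and WT + NACET replicates 3, 5 and 6, 3 genes were called. Col4a3 and Col4a4 were called in each of these fits.
Col17a1 encodes a transmembrane collagen of the hemidesmosomes that anchor surface epithelia. It had 1.45, 2.12, 1.66, 1.31 and 6.27 CPM in Akita + NACET and 0.535 to 1.64 with a median of 1.10 in WT + NACET. Akita + NACET replicate 5, the highest, also had the most RNA of the corneal keratin Krt12, at 61.1 CPM, where the other 17 libraries had 0.715 to 26.6 CPM. The call of Col17a1 in Akita + NACET vs WT + NACET was lost in 12 of 19 alternatives, among them leaving out that library, Akita + NACET replicate 2 or WT + NACET replicate 1, 3, 5 or 6. Its log2 fold change was 1.26 with all libraries and 0.62 without Akita + NACET replicate 5.

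Akita + NACET against WT asks how treated diabetic retinas differed from untreated normoglycemic ones. By edgeR 0 of the 51 genes were called, where 0.00618% of all genes, 1 gene, were called. DESeq2 called 0 of the 51 as well. An unadjusted p under 0.05 was found for 5.88% of the 51 genes, near the 4.63% of all genes. These were 3 genes, 2 higher and 1 lower: Col4a3 (0.62, SE 0.156), Col4a4 (0.44, SE 0.137) and Col20a1 (-0.75, SE 0.299). The Col4a3 values of the 5 Akita + NACET libraries were all above those of the 3 WT libraries. The median of the 51 genes was -0.21, beside -0.01 over all genes.

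The effect of NACET in Akita minus that in WT was tested as an interaction. It was called for 11 of the 51 genes, where 20.3% of all genes were called, so the share among the matrix genes was near that of all genes. The 10 with a more positive effect in Akita were Agrn, Col22a1, Col27a1, Col4a2, Col4a4, Col6a1, Fn1, Lama1, Lamb1 and Tnc, and the 1 with a more negative effect was Col19a1. The smallest p among them was that of Col6a1 at 2.07 (SE 0.404, adjusted p = 0.00363, edgeR), followed by Tnc at 1.29 (SE 0.272, adjusted p = 0.00487). Without WT replicate 2, 7 of the 51 were called. With off-exon reads as a covariate 0 were, and the value of Agrn changed sign, from 0.90 to -0.073.

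Several collagens varied between libraries of a group together with RNA of neighbouring eye tissues. The genes in this and the next 2 paragraphs were named after their values were seen. Col8a1 and Col8a2 encode the network-forming collagen VIII of Descemet's membrane and vessel walls. In Akita + NACET replicates 1 to 5, Col8a1 had 23.98, 22.2, 9.70, 19.02 and 4.51 CPM, and Rpe65, the isomerase of the pigment epithelium, had 67.5, 64.95, 16.97, 62.8 and 7.97 CPM. In WT replicates 1 to 3 Col8a1 had 5.17, 20.5 and 6.26 CPM and Rpe65 7.90, 43.2 and 16.3 CPM. The order of the libraries by the 2 genes was the same within each of these groups, and in Akita and in WT + NACET it differed in 1 pair of neighbouring libraries. The summed level of 10 pigment epithelium and melanocyte markers was 105 to 750 CPM in WT, 365 to 938 in WT + NACET, 61 to 194 in Akita and 61.2 to 388 in Akita + NACET, none of them at 0 in any library. No comparison of Col8a1 or Col8a2 was called. Their largest log2 fold changes were 1.49 (SE 0.601, adjusted p = 0.194, edgeR) for Col8a1 in WT + NACET vs WT and 1.38 (SE 0.674, adjusted p = 0.19) for Col8a2 in Akita + NACET vs Akita.

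Col18a1, which encodes the basement membrane collagen that releases endostatin, was highest in the libraries with the most RNA of Optc, the opticin gene of the ciliary epithelium. In WT it had 9.12, 94.0 and 6.86 CPM where Optc had 2.08, 50.4 and 2.23 CPM. In WT + NACET replicates 1 and 5 Col18a1 had 77.5 and 70.1 CPM and Optc 51.01 and 44.7 CPM. The other 4 libraries had 11.6 to 21.9 CPM of Col18a1 and 1.19 to 1.77 CPM of Optc, not in the same order. In Akita, Col18a1 had 33.3, 20.3, 59.1 and 6.13 CPM and Optc 21.6, 11.8, 40.9 and 1.91 CPM. WT replicate 2 had the highest CPM of all 18 libraries for 14 of the 51 genes, which was not counted over all genes. Col1a2, Col4a6 and Col9a2 had their highest 4 values in WT replicate 2, WT + NACET replicates 1 and 5 and Akita replicate 3. Without the 5 libraries in which Optc exceeded 20 CPM (Akita replicates 1 and 3, WT replicate 2, WT + NACET replicates 1 and 5), a choice made after seeing the data, 0 of the 51 genes were called in Akita vs WT and 0 in Akita + NACET vs Akita, from a fit with 2 libraries each of WT and Akita.

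The lens is wrapped in the thickest basement membrane of the body. Lens crystallin RNA was highest in WT + NACET replicate 5, with 8132 CPM of Crybb2. Akita replicate 2 had 1484 CPM, Akita + NACET replicate 3 had 585 and Akita + NACET replicate 5 had 174 CPM, and the other 14 libraries had 0.413 to 24.96 CPM. Nid1, Col4a1, Col6a3 and Lama2 were each highest of all libraries in WT + NACET replicate 5. Col6a3 had 10.2 CPM there and 0 to 0.284 CPM in the other 5 libraries of the group. The smooth muscle gene Acta2 (34.3 CPM) and the melanocyte gene Pmel (139.9 CPM) were also highest of all libraries in WT + NACET replicate 5. Akita replicate 2 had 1.68 CPM of Nid1, 1.56 of Col4a1, 0.405 of Col6a3 and 0.521 of Lama2. Which tissue these transcripts came from was not tested. The 8 lens markers together held 1.44 to 12.3 CPM in WT, 1.67 to 13500 in WT + NACET, 1.47 to 2030 in Akita and 1.18 to 808 in Akita + NACET. Without the 4 libraries with over 10 CPM of the crystallin gene Crygs, a choice also made after seeing the data, 5 genes were called in Akita vs WT and 0 in Akita + NACET vs Akita, from 3 libraries each of Akita and Akita + NACET.

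**Figure D5:**
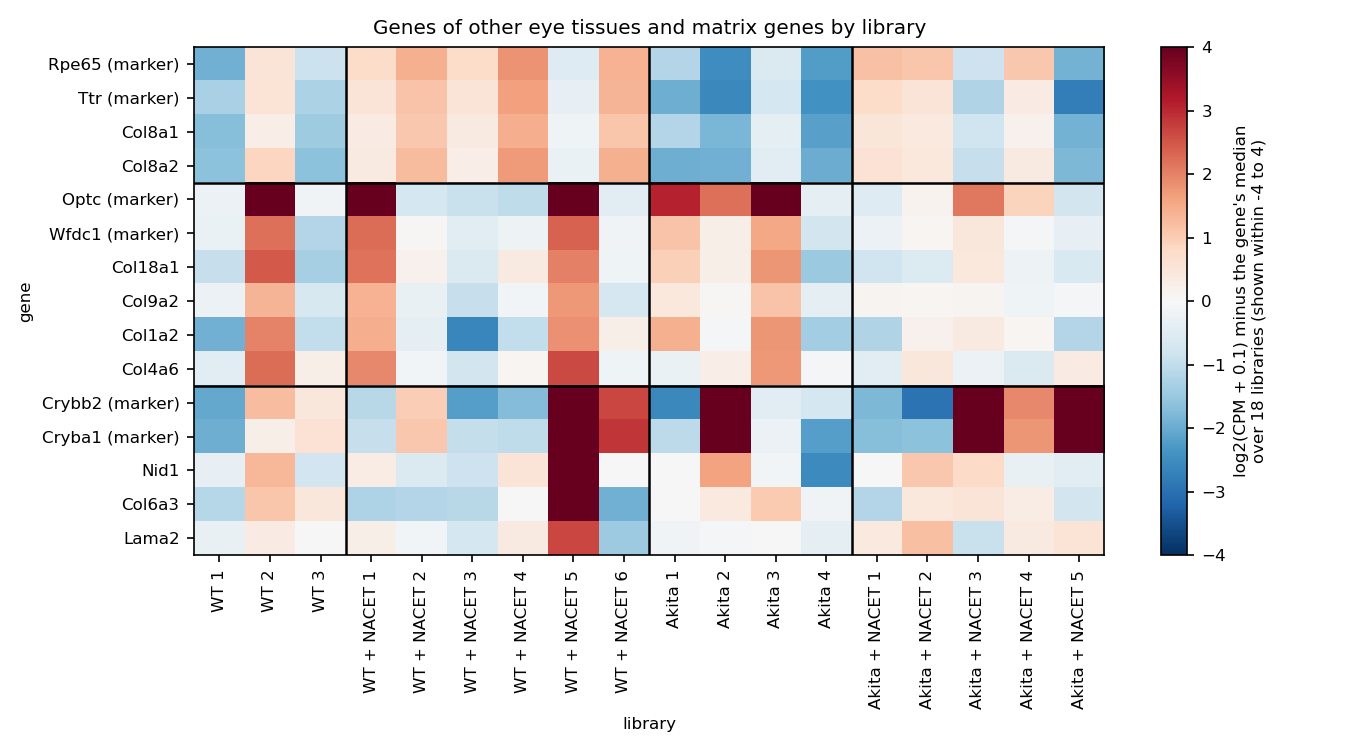
Log2(CPM + 0.1) minus the median of each gene over 18 libraries (colour, shown within -4 to 4) for markers of pigment epithelium, ciliary epithelium and lens and for matrix genes (rows) by library (columns). Col8a1 and Col8a2 follow Rpe65 and Ttr, and Col18a1 is highest in the libraries with the most Optc. Nid1, Col6a3 and Lama2 are highest in WT + NACET 5, where Crybb2 is highest.

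Genes that process, bind or remodel these proteins were described by counts from lists. Of 26 tested genes of collagen processing, 2 were called in Akita vs WT: Loxl2, a lysyl oxidase that crosslinks collagen IV, was lower (-0.94, SE 0.208, adjusted p = 0.0168, edgeR) and P4hb, a subunit of prolyl hydroxylase and a general protein disulfide isomerase, was higher (0.40, SE 0.123, adjusted p = 0.0492). In Akita + NACET vs Akita P4hb was lower (-0.42, SE 0.107, adjusted p = 0.0239) and the lysyl hydroxylase Plod2 was higher (0.82, SE 0.235, adjusted p = 0.0373). Of 19 matrix receptors tested, the collagen receptor Ddr1 was called in both, at -0.58 (SE 0.138, adjusted p = 0.0232) and 0.49 (SE 0.123, adjusted p = 0.0239). None of the tested integrins was called in these comparisons.
Of 18 tested remodelling genes, the membrane-bound metalloproteinase Mmp16 was called in both, at -0.77 (SE 0.2, adjusted p = 0.0276) and 0.75 (SE 0.179, adjusted p = 0.021). Of 18 tested genes of TGF-beta signalling, 3 were called lower in Akita: the matricellular growth factor Ctgf (-1.10, SE 0.267, adjusted p = 0.0235), the endothelial co-receptor Eng (-1.59, SE 0.453, adjusted p = 0.0389) and the latency protein Ltbp4 (-1.71, SE 0.474, adjusted p = 0.0365). Of these, Ltbp4 was called higher in Akita + NACET vs Akita (1.58, SE 0.431, adjusted p = 0.0317). The shares called over all genes are those given above.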

How the data were processed

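Poly(A) RNA of 18 mouse retina samples was sequenced single end. Per the labels and the study's methods, the authors aligned reads to mm9 with TopHat2 2.1.0 and Bowtie and deposited raw read counts per gene from HTSeq 0.11.2, over exons and without regard to strand, so that reads overlapping several genes (1.07% on average) or placed at several sites (9.04%) were left out and antisense transcripts cannot be separated. Counts are whole reads without molecular identifiers, and limits on 0 counts cover counting error only. As in the study, ribosomal RNA genes (206, 0.977% of counts) were removed here. Gene positions and exon lengths are those of the mm9 annotation.

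All groups entered 1 fit in edgeR 4.0.16 (R 4.3.3), with TMM, the default filter (minimum count 10, total 15) and the robust quasi-likelihood F test on 6 contrasts. p-values were adjusted by Benjamini and Hochberg over 16183 genes, and genes at or below 0.05 were called. The SE was derived from the F statistic. Alternatives were DESeq2 1.42.0 (the study's tool), its size factors, no filter, only the groups compared, the replicate number as a block, off-exon reads as a covariate and each library left out. The tests were tried on simulated counts. Values by library were given for genes called in Akita vs WT, Akita + NACET vs Akita or WT + NACET vs WT and for Col4a1, Col4a2, Lama5, Lamb2, Lamc1, Nid1, Hspg2, Agrn, Sparc and Fn1, and genes of the processing, receptor, remodelling and TGF-beta lists were named where called in the first 2. The genes and lists were chosen with earlier results of these data known. Values of some genes of these lists are not reported here.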

Additional observations from a re-analysis of the deposited data

Results flagged for a closer look

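The effect of NACET differed between Akita and WT by the interaction test of edgeR (adjusted p at most 0.05) for 11 of the 51 genes. On the log2 scale the difference was 2.84 for Col27a1, 2.07 for Col6a1, 1.95 for Col22a1, 1.52 for Lama1, 1.49 for Col4a2, 1.31 for Fn1, 1.29 for Tnc, 0.90 for Agrn, 0.89 for Lamb1, 0.75 for Col4a4 and -0.83 for Col19a1. Over all genes 20.3% were called. With off-exon reads as a covariate 0 of the 11 were called, and the value of Agrn was -0.073.

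Dixon's criterion was applied to 153 sets, each the CPM of 1 gene in 1 group of 4 to 6 libraries. It flags about 1 in 20 sets of independent normal values. The sets here share libraries and some rest on few counts, so that rate is no reference for them. Single libraries stood apart from their group in 12 of the 153 sets. WT + NACET replicate 5, the library with the most lens RNA, held 4 of them, with Nid1 at 24.3 CPM (others 0.228 to 0.738), Col6a3 at 10.2 CPM (0 to 0.284), Col4a1 at 7.01 CPM (0.835 to 2.86) and Lama2 at 4.04 CPM (0.136 to 0.738). In WT + NACET, Agrn was also high in replicate 2 at 23.6 CPM (11.5 to 15.4) and Col6a2 in replicate 4 at 5.05 CPM (2.62 to 2.81).

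In Akita, Col8a2 was high in replicate 3 at 14.7 CPM (4.97 to 5.21), as was Col4a6 at 2.57 CPM (0.561 to 0.869), and Col11a2 was low in replicate 4 at 0.249 CPM (0.842 to 0.926). In Akita + NACET, Col4a3 was high in replicate 1 at 314 CPM (238.5 to 259), Col16a1 in replicate 2 at 1.18 CPM (0.124 to 0.261) and Col17a1 in replicate 5 at 6.27 CPM (1.31 to 2.12), the library with the most Krt12. The part of lens, corneal or other RNA in these values was not tested.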

How the results depend on the processing

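The scaling of DESeq2, the test of DESeq2 and leaving out the expression filter kept each count of called genes within 1.5 times. With off-exon reads as a covariate, 0 genes were called in the interaction, 0 in Akita + NACET vs Akita, 0 in Akita vs WT, 0 in WT + NACET vs WT and 3 in Akita + NACET vs WT + NACET, and the interaction of Agrn turned from 0.90 to -0.073. Their share differed between the groups, so that its part and that of the groups cannot be told apart. With only the groups compared in the fit, 2 genes were called in Akita vs WT and 1 in WT + NACET vs WT. Replicate numbers did not pair the libraries: of 22 pairs with the same number, 4 had a correlation of deviations over 0.1 (range -0.332 to 0.345). With the replicate number as a block, 2 genes were called in Akita + NACET vs Akita, 1 in WT + NACET vs WT and 3 in Akita + NACET vs WT + NACET. Leaving out 1 library gave 0 to 7 genes in Akita + NACET vs Akita, 0 to 8 in Akita vs WT, 0 to 3 in WT + NACET vs WT, 3 to 7 in Akita + NACET vs WT + NACET and 7 to 13 in the interaction. The next pair of choices was made after seeing the data. Without the 4 libraries with lens transcripts, 0 genes were called in Akita + NACET vs Akita, 1 in WT + NACET vs WT, 2 in Akita + NACET vs WT + NACET and 5 in the interaction. Without the 5 libraries with high Optc, 1 gene was called in the interaction, 0 in Akita + NACET vs Akita, 0 in Akita vs WT and 0 in WT + NACET vs WT. Both leave fewer libraries per group, and the cause of the other losses was not tested. The share of all genes called was not counted for these alternatives, so the losses may not be particular to the matrix genes. Col4a3 and Col4a4 in Akita + NACET vs WT + NACET kept their calls in all 19 alternatives. For genes near 1 CPM, few counts limit what can be seen.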
